A study of Drosophila melanogaster with 3 samples.

Results

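Binding of E(spl)mgamma-HLH inside genes but away from their starts was described from 1342 peaks of a chromatin immunoprecipitation experiment with sequencing (ChIP-seq), 29.7% of the 4524 peaks in the authors' reproducible set. A peak was taken when its summit, the position of highest signal, lay 501 to 10000 bp from the nearest transcription start site (TSS) of a protein-coding gene. The summit also had to lie inside a protein-coding gene and outside all coding sequence and untranslated regions of such genes. These are called genic peaks, the gene around one is its host, and all sequence that meets the same rule is called the genic territory. The remaining peaks were 2150 within 500 bp of a TSS (promoter peaks), 539 between genes at 501 to 10000 bp, 443 farther than 10 kb and 50 in exons.

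The chromatin came from whole embryos of both sexes, pooled, aged 0 to 16 h, in 3 samples labelled as biological replicates of 1 group. All came from 1 transgenic Drosophila melanogaster line, Esplmgamma-HLH-GFP, that stably expresses E(spl)mgamma-HLH with GFP at its C terminus, and an antibody against GFP was used. No treatment, second genotype or second age was among the samples analysed, the labelled control was not analysed here, and the embryo is a mixture of all its cell types and ages. The files give no read counts, so sequencing depth is not known, and the design gives no comparison between conditions.

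E(spl)mgamma-HLH is a basic helix-loop-helix repressor of the Hairy/E(spl) family. Its gene lies in the Enhancer of split complex, whose genes are switched on by Notch signalling through the DNA-binding protein Su(H), and the proteins recruit the corepressor Groucho and hold back neural fate in cells that receive the Notch signal. Proteins of the family are known to bind E-box and N-box hexamers in DNA. In flies, long introns, above all those near the start of a gene, often carry enhancers and further promoters.

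Summits of genic peaks were A/T-rich in the mean, as were those of the other classes of peak, and the sequences at the highest show how far single peaks varied around that mean. The 30 bases around the summit are given for the 5 highest genic peaks, from the RefSeq copy of the Release 6 genome (dm6), with the longest unbroken run of A and T in capitals.
ush (chr2L:481082-481111, plus strand): aaaagAAATTTTATATTTgtcgttactaaa
CG11050 (chr2L:6612711-6612740, plus strand): ttagattttgtattgcTTTTATcatttagt
Lk6 (chr3R:11761038-11761067, plus strand): cATAAActaaacgtatttcactgaacagcc
CG9663 (chr2L:3302168-3302197, plus strand): acatgcgggcatagTAAAcacatacgacaa
CG32772 (chrX:4910348-4910377, plus strand): AAAATTTAAAgttaagcggttataaaacta
A and T made up 83.3% of the window in ush, 80.0% in CG11050 and 80.0% in CG32772. The window in Lk6 held 63.3%, and that in CG9663, at 56.7%, was not A/T-rich beyond the genic territory, whose mean GC content was 39.8%. The the longest runs spanned 13, 6, 5, 4 and 10 bases in the order printed.

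Beside the A/T-rich centre, 2 short words stood on the flanks of the summit and pointed away from it. One was TCAGTG, which begins with TCAGT, the core of the initiator element found at fly TSSs, and the other was CACTGT. The examples below are the highest genic peaks with each word 41 to 140 bp from the summit, read outward from the summit, with the word in capitals.
CG11050, TCAGTG (chr2L:6612765-6612794, plus strand): ccacatatttttTCAGTGcacagccacagc
Lk6, TCAGTG (chr3R:11761104-11761133, plus strand): gttatttttcttTCAGTGcagagagagccc
norpA, TCAGTG (chrX:4325105-4325134, plus strand): gttctcagttggTCAGTGgtcgtccgccgg
Gug, TCAGTG (chr3L:8458402-8458431, plus strand): ccattttttttaTCAGTGtagtctgtccgt
Raf, CACTGT (chrX:2297784-2297813, plus strand): tcgttcggtgttCACTGTacctgctgccag
norpA, CACTGT (chrX:4325053-4325082, plus strand): acaaaaaggcccCACTGTacttgagataaa
Trl, CACTGT (chr3L:14759387-14759416, minus strand): tgttttgtatccCACTGTgcttggtttgca
Csk, CACTGT (chr3R:11649699-11649728, plus strand): tccttttgcggcCACTGTatcgtgtgacca
The words began 51 bp (CG11050), 63 bp (Lk6), 127 bp (norpA) and 120 bp (Gug) from the summit for TCAGTG. For CACTGT the distances were 65 bp (Raf), 75 bp (norpA), 99 bp (Trl) and 56 bp (Csk). The genic peak in norpA held both words on the same side of its summit. These words were picked after their counts had been seen, so their values further on are descriptions without a test.

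The highest genic peak lay in the first intron of ush, which encodes u-shaped, a cofactor of GATA transcription factors. Its signal, the authors' own value for a peak within one list, was 1060, 1025 and 917 in replicates 1 to 3. It ranked 3 among all peaks of each replicate's list and 3 in the reproducible set. The nearest TSS was that of the Krüppel-like zinc finger gene cbt, 1409 bp away, with the peak on its upstream side. The host and the nearest gene of this peak thus differ.

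The next highest genic peak was in the second intron of CG11050, 1039 bp downstream of its TSS, with signals of 759, 821 and 692 in replicates 1 to 3 and ranks of 9, 5 and 9. Lk6, which encodes a kinase of the translation factor eIF4E, carried a peak in its first intron, 974 bp upstream of an internal TSS. Its signals were 629, 629 and 593 and its ranks 19, 13 and 15. The first intron of CG9663 followed with signals of 604, 616 and 569, and that of CG32772 with 640, 539 and 505. All 5 peaks ranked 26 or better in each replicate, and their order was not the same in all of them.

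The other 15 of the 20 highest genic peaks lay in genes of varied roles. HmgZ and HmgD, which encode HMG-box proteins that bend DNA, shared 1 peak (rank 22 in the set). Adf1, a transcription factor gene, had a peak at rank 27. Signalling genes followed with Raf, the MAP kinase kinase kinase of receptor tyrosine kinase pathways (rank 30), Tlk, a Tousled-like kinase gene of chromatin assembly (rank 36), and norpA, the phospholipase C gene of phototransduction (rank 53). Trl encodes the GAGA factor and had its highest genic peak at rank 58. Hr3, a nuclear receptor gene of the ecdysone response, was at rank 63 and mub, a gene for a KH-domain RNA-binding protein, at rank 65. LPCAT, an acyltransferase gene of phospholipid synthesis, stood at rank 71 and Csk, the kinase gene that restrains Src, at rank 89. The peaks in CG32486 (rank 41), CG3726 (52), CG9837 (77) and CG12769 (83) were in genes whose roles are not given here, and 1 lay in the overlap of Hyls1 and chif, a regulator of DNA replication (rank 80). Each of the 20 was among the 4524 highest peaks of all 3 replicates, and the lowest rank any of them had in a replicate was 142, for Csk in replicate 2.

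The genic peaks as a whole were of middle strength. Their signal in the pooled reproducible set ran from 114.6 to 2983 with a median of 189, against 197 over all 4524 peaks, 213 at promoters and 183 between genes at the same distances. They supplied 24 of the 100 highest peaks and 2 of the 10 highest. Signal changed little with distance from the TSS (Spearman's rho −0.08 over 1342 peaks, given as a description). These pooled values have no replicate error.

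The replicates found most genic peaks again. A top peak is one of the 4524 of highest signal in a replicate's list, the size of the reproducible set. The summit of a genic peak lay in a top peak for 88.2% of members in replicate 1, 85.5% in replicate 2 and 87.6% in replicate 3 (mean 87.1% ± 1.42, SD, n = 3). All 3 replicates held it as a top peak for 937 genic peaks, 69.8% (Wilson 95% interval 67.3 to 72.2%), beside a background of 68.5% over the whole reproducible set. The share in all 3 was thus near the background. A further 296 were top peaks in 2 replicates, 103 in 1 and 6 in none. Because the reproducible set was itself built from these lists, the shares are no independent measure of agreement.

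Against promoter peaks, the direction of the share of genic peaks in top peaks depended on the replicate and on how many peaks were counted as top. With 4524 top peaks it was higher at promoters in replicates 1 (90.05%) and 3 (89.4%) and lower in replicate 2 (83.1%), and the mean difference, genic minus promoter, was −0.44 percentage points ± 2.42 (SD; exact two-sided permutation p = 1.00, sign flips over n = 3). With the 2262 highest peaks of each replicate as top peaks, it was −7.56 ± 6.57 and negative in 3 of 3 replicates (exact permutation p = 0.25). Intergenic peaks at the same distances were in top peaks less often, at 82.7%, 84.0% and 84.6%. That difference, 3.29 percentage points ± 2.00 (SD), had the same sign in 3 of 3 replicates, with an exact permutation p of 0.25, the smallest that 3 replicates allow. Among the 2262 strongest peaks of the reproducible set it was 0.62 ± 1.13 points, without a common sign (exact permutation p = 0.75). No test over these replicates could therefore pass a threshold of 0.05.

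Within a replicate, genic peaks ranked between promoter and intergenic peaks. On a scale where 0 is the strongest and 100 the weakest of the matched reproducible peaks, their median rank was 54.6, 49.6 and 52.7 in replicates 1 to 3. Promoter peaks had medians of 42.0, 48.7 and 43.3, so genic peaks ranked weaker in each, by 7.65 ± 6.08 points (SD, n = 3, exact permutation p = 0.25). Intergenic peaks had medians of 57.3, 52.1 and 57.6, weaker than genic peaks by 3.35 ± 1.37 points in the mean, again in 3 of 3 replicates (exact permutation p = 0.25). Among the 2262 strongest reproducible peaks neither difference had the same sign in every replicate, at 6.39 ± 8.12 points against promoter peaks and −2.27 ± 3.41 against intergenic peaks (exact permutation p = 0.50 each). The gap to promoter peaks was smallest in replicate 2, and without that replicate the mean difference was 11.03 points.

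**Figure D1:**
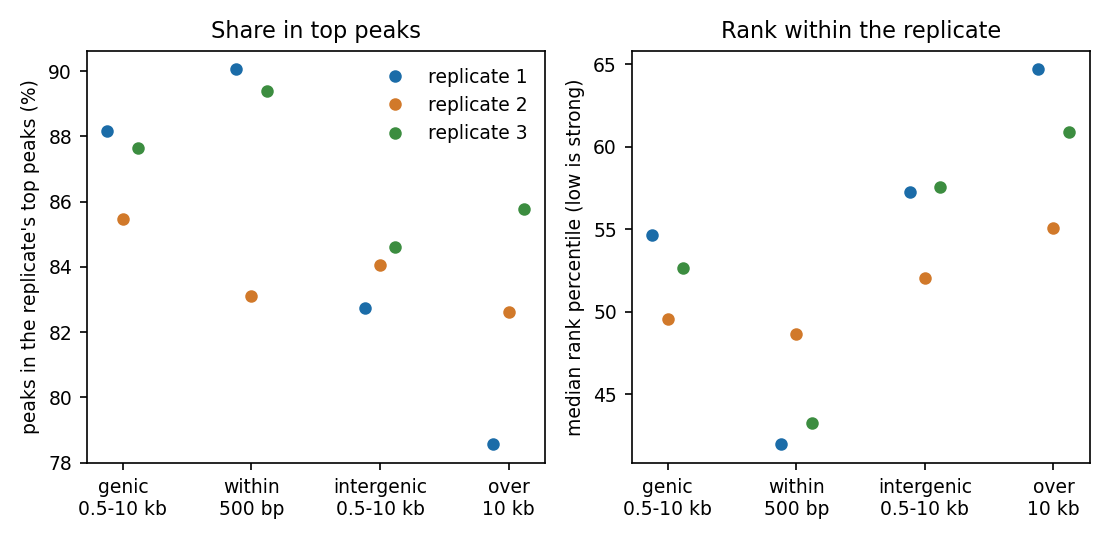
Left, percent of peaks of each class whose summit lies in a top peak of the replicate (axis from 78%); right, median rank percentile of each class within the replicate, where a low value is strong. Each point is 1 replicate. Genic peaks lie at 85.5 to 88.2% on the left, and on the right every replicate places them between promoter and intergenic peaks over the whole set.

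Replicate 2 stood apart for some members, as it did in the whole reproducible set. There were 126 genic peaks that were top peaks in replicates 1 and 3 but not in 2, against 84 lacking only replicate 1 and 86 lacking only replicate 3. The 126 were 9.39% of genic peaks (Wilson 95% interval 7.94 to 11.1%), beside 10.5% of the whole set and 11.9% of promoter peaks. A further 40 were top peaks in replicate 2 alone, 34 in replicate 1 alone and 29 in replicate 3 alone. Spearman's rho of the signal over matched genic peaks was 0.78 for replicates 1 with 3 over 1320 of them, 0.75 for 2 with 3 over 1314, and 0.73 for 1 with 2 over 1311. Over the whole set the same pairs gave 0.81, 0.72 and 0.69. Background regions included, the lists of replicates 1 and 3 held 23367 and 24251 peaks and that of replicate 2 exactly 30000, a round length that may be a limit set in peak calling. The part of list length in these patterns was not tested. Replicate summits had a median offset from the pooled summit of 16, 15 and 15 bp, and 40 members had no peak in at least 1 list. The pooled summit came from the same replicates and a matched peak had to cover it. Small offsets were therefore partly built in.

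Genic peaks lay mostly in first introns. All 1342 summits were in an intron of some transcript, which the rule largely fixes in advance. A first intron held 976 (72.7%), a second 257 and a later one 109, taking the lowest intron number among transcripts. By the same numbering, first introns made up 17.96 of the 33.2 Mb of genic territory. In the Ensembl canonical transcript alone, 638 summits were in a first intron and 528 in a later one. The median length of the lowest-numbered intron was 10218.5 bp, given without a value for the territory. An intron within the 5' untranslated region held 730 summits (54.4%). The nearest TSS belonged to a host gene for 1131 peaks (84.3%) and to another gene for 211. The peak lay downstream of that TSS in 896 cases and upstream in 446 (33.2%). Inside a host gene, a peak upstream of the nearest TSS sits between an outer start and an internal start, or near the start of a neighbouring or nested gene. Counting TSSs of every gene type, 33 genic peaks (2.46%) lay within 500 bp of one. Of all members, 48 lay inside annotated noncoding RNA genes, and none of the 1342 in an annotated transposable element.

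First introns were denser in genic peaks than later introns in each range of distance from the TSS. First introns held 54.3 peaks per Mb of genic territory (exact Poisson 95% interval 50.99 to 57.9), second introns 32.7 (28.8 to 37.0) and later introns 14.8 (12.2 to 17.9). The ratio of first to second or later introns was 2.26 (exact 95% interval 2.00 to 2.55). The intervals did not overlap in any distance range. At 0.5 to 1 kb the densities were 86.4 and 40.99 peaks per Mb, at 1 to 2 kb 66.9 and 28.9, at 2 to 5 kb 45.9 and 23.6, and at 5 to 10 kb 35.9 and 19.4. Introns of the 5' untranslated region held 49.3 peaks per Mb (45.8 to 53.0) and other introns 33.3 (30.7 to 36.1). When introns were numbered in the Ensembl canonical transcript alone, the ratio was 1.80. Intervals cover counting error only.

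Genic territory was also denser in peaks than intergenic sequence at matched distances. The 33.2 Mb of genic territory held 40.4 peaks per Mb (38.3 to 42.7) and the 21.9 Mb of intergenic sequence 24.7 (22.6 to 26.8). Genic density went from 73.2 per Mb (65.0 to 82.1) at 0.5 to 1 kb to 52.8, 35.4 and then 26.7 (23.7 to 29.9) at 5 to 10 kb. Intergenic density went from 40.1 (32.3 to 49.2) to 17.9 (15.05 to 21.2), below the genic value in each of the 4 ranges. Second or later introns, at 40.99, 28.9, 23.6 and 19.4 per Mb, had values whose intervals overlapped those of intergenic sequence throughout.

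**Figure D2:**
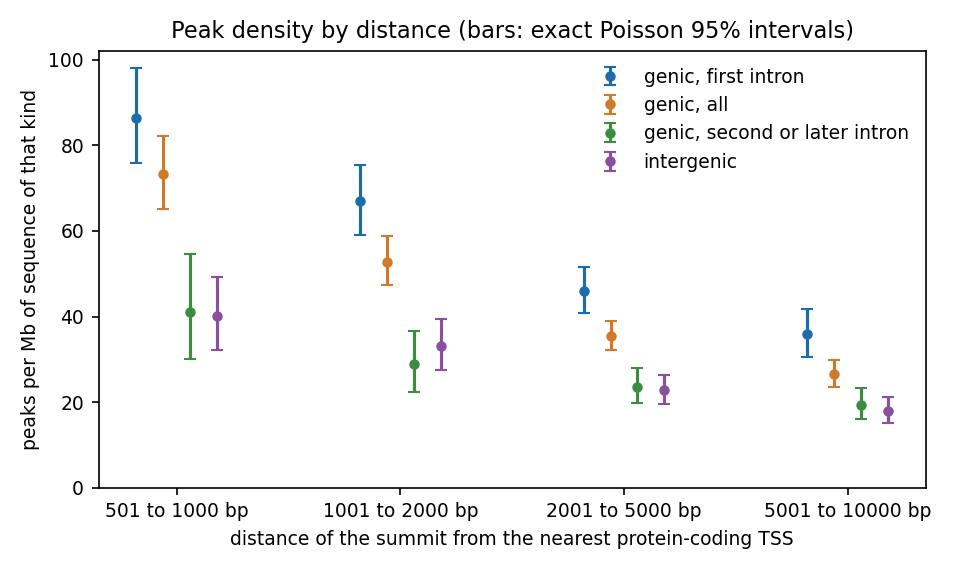
Peaks per Mb of sequence (vertical axis) in 4 ranges of distance from the nearest protein-coding TSS, for genic peaks in all introns, in first introns and in second or later introns, and for intergenic peaks. Bars are exact Poisson 95% intervals; first introns lead in each range, from 86.4 down to 35.9 per Mb.

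The median distance from the TSS was 2225.5 bp, with quartiles at 1068.25 and 4620.5 bp. At the near limit of the rule, the first peaks inside were in CG42671 (505 bp, signal 395), pAbp (509 bp, 379) and CG9981 (509 bp, 236), and the first outside were at qtc (499 bp, 180), stv (499 bp, 127) and jar (495 bp, 496). At the far limit, the last inside were in NetA (9916 bp, 233), Efa6 (9954 bp, 247) and Hr4 (9967 bp, 792), and the first outside in nmo (10007 bp, 208), drl (10063 bp, 158) and Ac13E (10078 bp, 117). The signals inside and outside overlapped at the near limit, while at the far limit the 3 inside were each higher than the 3 outside. These are 3 single peaks to a side, from which no change of signal at a limit can be read.

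Among chromosome arms, X carried the densest genic peaks, with 51.1 per Mb (45.8 to 56.8). The arms 3L (40.99), 3R (40.6), 2L (35.9) and 2R (35.6 peaks per Mb) lay lower. The upper bounds of 2L, 2R and 3R, 40.96, 40.7 and 45.4, fell below the lower bound of X, while that of 3L, 46.2, did not. Chromosome 4 held 0 genic peaks in 0.447 Mb, with an upper bound of the exact Poisson interval of 8.25 per Mb.

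The peaks were spread over many genes. Hosts numbered 845 of the 13945 protein-coding genes, a background of 6.06%, and 7.08% of the 11937 genes with any genic territory. Of these hosts, 555 had 1 peak, 147 had 2 and 143 had 3 or more. Hosts had a median of 10.2 kb of genic territory, against 0.229 kb over all genes with some. Hosts were thus long genes, and densities per Mb are given beside the counts of hosts below. A summit inside 2 or more overlapping genes (80 peaks) was counted for each.

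Some genes carried many genic peaks. CG1677 had 14, the most, in 90.6 kb of territory. A host need not be the gene of the nearest TSS. The best peak in CG1677 (rank 437) lay nearest to Dok, and others there to CBP, unc-119 and brk. The best peak in CG14434 (rank 281) lay nearest to CG43736. Raf had 10 in 26.0 kb, and so did shn, which encodes the zinc finger protein Schnurri of the Dpp pathway, in 43.0 kb. Tlk had 9, the forkhead gene CHES-1-like had 8 in 16.2 kb, and CG14434 had 8 in 12.005 kb. Per Mb of territory this came to 666 for CG14434, 495 for CHES-1-like, 385 for Raf, 233 for shn, 179 for Tlk and 154 for CG1677, against 40.4 over all genic territory. Their best ranks in the reproducible set ran from 30 (Raf) to 559 (shn). In all, 246 members (18.3%) had another member within 1 kb, so neighbouring peaks in such genes are not independent sites.

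Genes of 20 lists of pathways and tissue regulators were then read for genic peaks. Of 260 listed genes 88 hosted one (33.8%), beside the 6.06% of all protein-coding genes. By the gene of the nearest TSS instead of the host, the count was 74 of the 260. Of the best peaks named below, those in drk, Dad, arr, fz, dally, mam and fng lay nearest to the TSS of another gene. The same holds for those in Rbfox1, fra, NetA, insc, jing and nau. Listed genes with territory had a median of 6.51 kb of it, against 0.229 kb over all genes with some, and the density per Mb varied from list to list with intervals that mostly included the overall 40.4.

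Receptor and growth factor pathways were among the densest lists. Of 14 EGFR pathway genes 9 hosted a peak, at 106 peaks per Mb (60.5 to 172) and, without S, 87.6 (45.3 to 153). They were led by aos, the gene for the secreted inhibitor Argos, at rank 157 (268, 107 and 158 in replicates 1 to 3). Next came S, which encodes Star, a carrier of the ligand Spitz, at rank 182 with 4 peaks, drk, the adaptor gene (299), and the ETS repressor gene aop (557). Of 13 Dpp pathway genes 6 hosted 19 peaks, at 131 per Mb (79.2 to 205). With 10 of the 19 in shn, the list without it gave 88.6 per Mb (40.5 to 168). Mad, the Smad transducer gene, had its peak at rank 271, sog, a secreted antagonist gene, at 396, shn at 559 and Dad, an inhibitory Smad gene, at 708. The peak in Mad ranked 515, 171 and 279 in replicates 1 to 3, and that in Dad 1514, 387 and 768. Both stood highest in the longer list of replicate 2. In the JAK/STAT list Socs36E, a suppressor gene, had 4 peaks (best rank 839) and the transcription factor gene Stat92E had 1 (1403), 5 peaks in 0.0316 Mb or 158 per Mb (51.5 to 370), and without Socs36E 46.7 per Mb (1.18 to 260).

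The Wg list had 7 hosts of 15 at 68.5 peaks per Mb (37.4 to 114.9). They included the coreceptor gene arr (rank 1187), the receptor gene fz (1254), the glypican gene dally (1756) and nkd, a gene for a Wg antagonist (2732). In the Hh list ptc, the receptor gene, had 1 peak at rank 2875, and Ptp10D, a receptor phosphatase gene that is not a core member of that pathway, had 2. The Hh list had 2 hosts of 10 at 80.5 per Mb (16.6 to 235). Over all genic peaks the median rank was 2389, and of the best peaks named for these lists those in ptc and nkd were weaker than that.

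Notch pathway genes hosted 10 genic peaks, 7 of them in mam. Mastermind, its product, is the coactivator that joins Su(H) and the Notch intracellular domain, and its best peak stood at rank 453 (459, 485 and 433 in replicates 1 to 3). The others were in neur, a ubiquitin ligase gene for Notch ligands (rank 712), CtBP, a corepressor gene (1303), and fng, a glycosyltransferase gene that modifies Notch (2931). With 4 hosts of 21 genes the density was 58.7 per Mb (28.1 to 108), an interval that holds the overall value, and without mam it was 23.6 (4.87 to 69.0). The E(spl) complex bHLH genes had 0 hosts of 7, and together they hold only 0.000021 Mb of genic territory, so the rule could hardly take a peak there. Among the other bHLH-Orange repressor genes cwo, the circadian repressor gene, had 1 peak at rank 1605. It was the 1 host of 5 there, at 86.4 per Mb (2.19 to 481). Proneural genes (0 of 10, with 0.00351 Mb) and segmentation genes (0 of 16, with 0.0375 Mb) hosted none, and these genes too are short. For the segmentation genes the upper bound of the exact Poisson interval was 98.3 per Mb.

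Chromatin regulators of the Polycomb and trithorax groups had 6 hosts of 16 and 11 peaks, at 175 per Mb (87.1 to 312), an interval above the overall value. Without Trl, which had 4 of the 11, the density was 122.9 per Mb (49.4 to 253). The best peak in Trl was at rank 58 (35, 65 and 68 in replicates 1 to 3). The histone methyltransferase gene trx followed at rank 103, and the Polycomb complex genes Psc (478) and ph-p (1322) came after it. Replicates placed the peak in trx at 87, 145 and 125.

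Nuclear receptor and hormone response genes had 8 hosts of 13 and 20 peaks, at 59.3 per Mb (36.2 to 91.6). The peak in Hr3 ranked 67, 59 and 65 in replicates 1 to 3. That of Hr4 lay at rank 131 near the far limit of the rule, and the ecdysone-induced Eip75B (770) and the ecdysone receptor gene EcR (825) followed. In the circadian list Pdp1 (rank 671) and vri (2616), which encode bZIP factors of the clock, hosted peaks. That list had 2 hosts of 7 at 55.6 per Mb (15.1 to 142).

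Neural and sensory lists had intervals that included the overall density. Sensory organ and neuronal genes had 7 hosts of 13 at 57.6 per Mb (26.4 to 109). These included elav, the pan-neuronal RNA-binding protein gene (rank 385), ct, a homeodomain gene of external sense organs (1049), the zinc finger gene jing (2342) and lola (2343). The lola peak had no match in the replicate 1 list. Neuroblast and temporal factor genes had 4 hosts of 16 at 29.7 per Mb (10.9 to 64.7). In that list brat, a gene for a translational repressor that limits neuroblast growth, had a peak at rank 135 (168, 134 and 145 in replicates 1 to 3). The epithelial and neuroblast factor gene grh was at 866, insc at 2206 and nab at 3441. Axon guidance genes had the lowest density of the lists with a peak, 23.6 per Mb (12.2 to 41.1), with the Netrin receptor gene fra (943), the Robo ligand gene sli (1008), the teneurin gene Ten-a (1454) and the ligand gene NetA (1778).

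Of the remaining lists, RNA-binding factors had 9 hosts of 16 but in 0.599 Mb of territory, at 31.7 per Mb (19.1 to 49.5). They were led by mub (rank 65), Rbfox1 (589), shep (637) and mbl (691), all splicing or RNA-binding genes. Cell adhesion and polarity genes had 8 of 16 at 42.6 per Mb (21.3 to 76.2), with the adhesion gene Fas3 (587), the apical determinant gene crb (766), the integrin gene if (1434) and the scaffold gene dlg1 (1448). Mesoderm and muscle regulators had 5 of 13 at 57.6 per Mb (24.9 to 113). They were led by the repressor gene zfh1 (225), the RNA-binding gene how (811), the myogenic bHLH gene nau (1571) and Mef2 (3163). Hox genes and cofactors had 3 of 11, the cofactor gene hth (1923), Antp (2596) and Abd-B (2659), all of middle to low rank. Their density was 34.3 per Mb (12.6 to 74.7), an interval that includes the 40.4 of all genic territory.

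**Figure D3:**
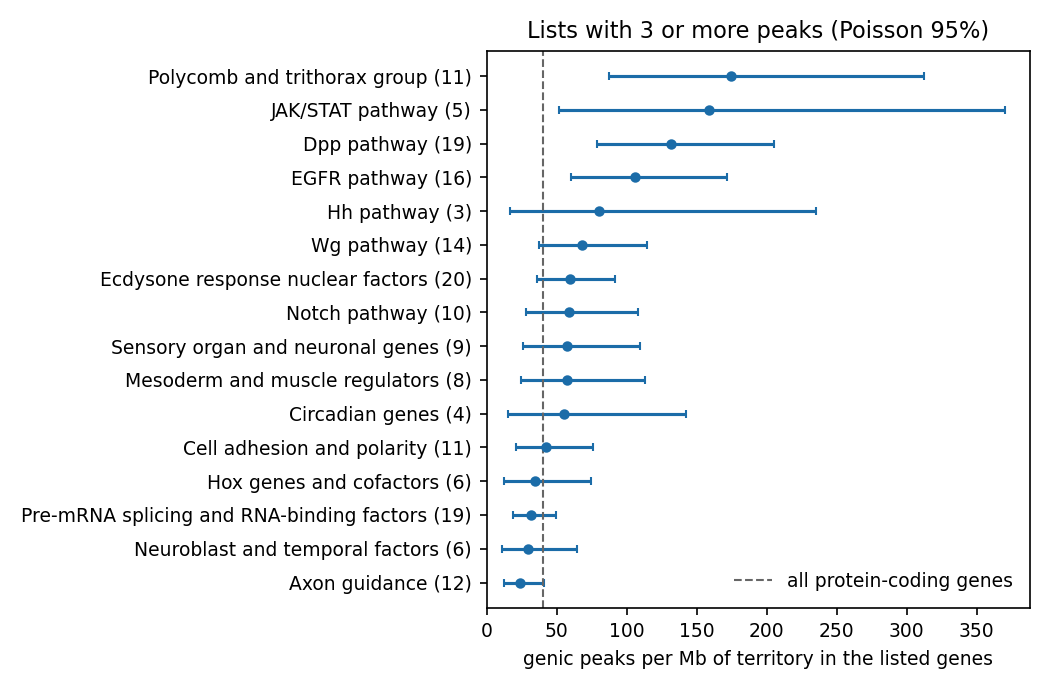
Genic peaks per Mb of genic territory (horizontal axis) in each gene list with 3 or more peaks, the number of peaks in brackets; bars are exact Poisson 95% intervals and the dashed line is the 40.4 per Mb of all genes. The intervals of the Polycomb and trithorax, JAK/STAT, Dpp and EGFR lists lie above the line; that of the JAK/STAT list includes it when Socs36E is left out.

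The base composition at summits was measured at each replicate's own summit, in windows reaching 50 bp to either side. GC content was 33.6%, 33.3% and 33.1% at the summits in replicates 1 to 3 (mean 33.4% ± 0.23, SD, n = 3). The windows 500 bp to either side had 42.1% ± 0.05, and all genic territory had 39.8%. The summits were lower than their flanks by 8.73 percentage points ± 0.23 in 3 of 3 replicates (exact permutation p = 0.25, the smallest possible). Because the 3 replicates were read at largely the same peaks, the SD covers the placement of summits and not the choice of sites. The other classes had the dip as well, with summit minus flank at −10.3 percentage points ± 0.43 for promoter peaks, −7.59 ± 0.33 for intergenic peaks and −8.22 ± 0.50 for peaks beyond 10 kb. Summits of genic peaks were lower in GC than those of promoter peaks (35.8% ± 0.38) and of intergenic peaks (34.8% ± 0.42), in 3 of 3 replicates each (exact permutation p = 0.25). Against peaks beyond 10 kb (33.9% ± 0.47) the difference was −0.49 points ± 0.30. The dip was narrow and stood between GC-rich shoulders. In replicates 1 to 3 GC content reached 44.6%, 44.5% and 44.6% at 240 to 260 bp from the summit and returned to 40.6%, 40.5% and 40.5% at 1000 bp.

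The A/T hexamer TTAAAA, sought on both strands, occurred in 29.5%, 32.7% and 31.7% of summit windows and in 15.05%, 14.8% and 14.9% of flanks, against 18.8% of windows tiled over genic territory. At pooled summits it was in 31.2% of genic, 32.0% of promoter and 29.1% of intergenic peaks. GAGAG, the core of sites bound by the GAGA factor, had the opposite course. It was in 9.86%, 10.3% and 8.86% of summit windows, in 17.1%, 16.96% and 17.2% of flanks and in 11.1% of territory windows, so it was above the territory on the flanks and not at the centre. It was most frequent at 140 to 180 bp from the summit, with 20.02%, 19.9% and 20.05% of windows in replicates 1 to 3. GC content moved with both words along the profile, and its part in their shares was not tested.

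**Figure D4:**
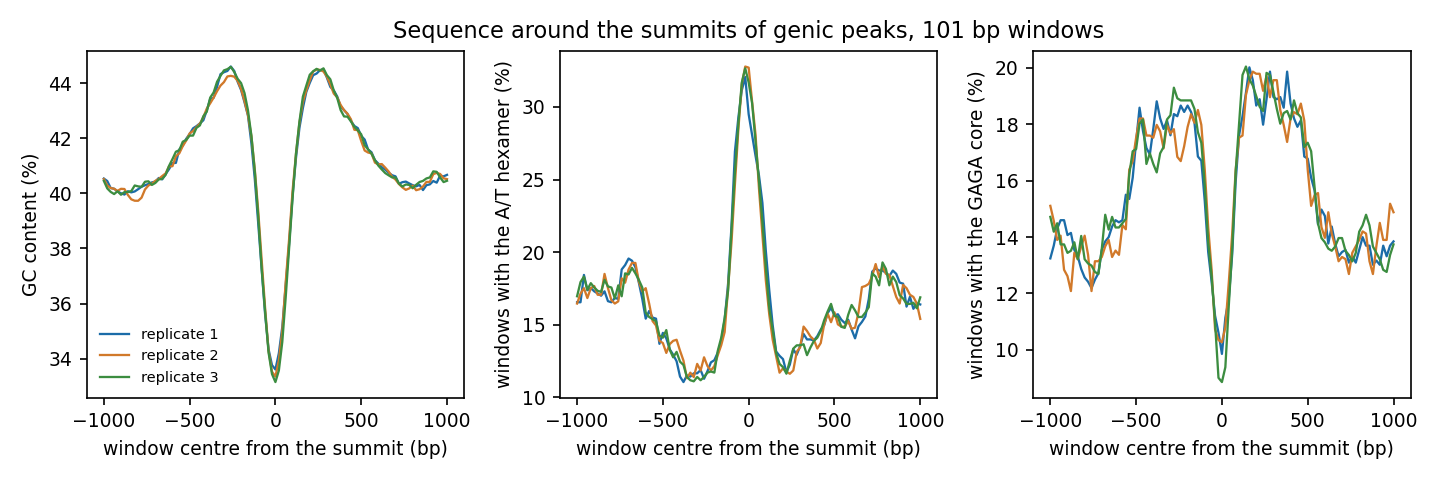
GC content, share of windows with the A/T hexamer TTAAAA and share with the GAGA core GAGAG (vertical axes, percent; none starts at 0) in windows reaching 50 bp to either side, at 20 bp steps up to 1000 bp on either side of the summits of genic peaks, 1 line per replicate. GC falls to about 33% at the summit between shoulders near 44.6%, the hexamer peaks at the summit, and GAGAG is lowest there.

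The hexamers that Hairy/E(spl) proteins are known to bind were not frequent at the summits. The class B E-box CACGTG was in 0.502% ± 0.157 of summit windows and 1.15% ± 0.233 of flanks. The related CACGCG was in 0.678% ± 0.200 and 2.38% ± 0.129, and both were lower at the summit in 3 of 3 replicates. The Su(H) site (C or T, then GTG, A or G, then GAA) was in 0.928% ± 0.112 of summits and 1.29% ± 0.0909 of flanks. Over windows tiled on genic territory the shares were 1.14% for CACGTG, 1.60% for CACGCG and 1.07% for the Su(H) site. The promoter element DRE (TATCGATA), at 3.95% of promoter summits in the pooled set, was at 1 of 1342 genic summits.

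Of the 4 N-box forms, CACTAG was higher at summits, at 2.41% ± 0.0826 against 1.56% ± 0.125 on the flanks, in 3 of 3 replicates (mean difference 0.853 percentage points ± 0.0775, exact permutation p = 0.25). At pooled summits it was in 2.53% of genic, 4.51% of promoter and 2.78% of intergenic peaks, each above its own flanks (1.79%, 1.58% and 1.67%). The E-box CATATG was at 4.67% ± 0.273 against 4.02% ± 0.395, also in 3 of 3, but with windows of 51 bp the mean difference turned to −0.05 percentage points. CACAAG, another N-box form, was higher in only 1 of 3 replicates. The N-box forms CACGAG (1.43% ± 0.203 against 2.01% ± 0.346 on the flanks) and CACCAG (1.96% ± 0.125 against 2.86% ± 0.263) were lower at summits in 3 of 3. In all, 3 of 16 motifs were higher at summits in each replicate (CATATG, the N-box CACTAG and the A/T hexamer), 9 were lower in each, and 4 were mixed or tied. Relative to the flanks CTCCTC was the scarcest, at 0.803% ± 0.116 of summits against 4.49% ± 0.0513 of flanks. The repeat word CACACA was in 12.6% ± 0.267 of flanks and 7.55% ± 0.196 of summits. The smallest exact p for any of these is 0.25, and a match to a motif is a description and not a site. Summits were also lower in GC content than flanks, and the part of base composition in these differences was not tested for any motif.

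The outward words printed at the start were then counted in the 100 bp that lie 41 to 140 bp from the summit on each side. Read outward, TCAGTG occurred in 8.59% ± 0.129 of sides (SD, n = 3 replicates) and, read inward over the same bases, in 2.28% ± 0.0842, beside 2.03% of territory windows of the same length on 1 strand. CACTGT was on 12.4% ± 0.387 of sides outward and 3.53% ± 0.168 inward, against 1.86% in the territory. Their inward values were near the territory for TCAGTG and above it for CACTGT. The shorter word TCAGT gave 14.3% outward and 8.18% inward, and the pyrimidine-rich TTTTTC gave 18.1% and 6.96%. Since inward and outward counts share the same bases, the 2 readings differ in strand alone.

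The words were most frequent at similar distances on either side, but close to the summit the sides differed. On the right of the summit, TCAGTG on the plus strand was most frequent in the bin 40 to 60 bp away, with 36 occurrences per 20 bp, against 8 on the minus strand. On the left, the minus strand led with 33 occurrences at 60 to 80 bp, against 5 on the plus strand. CACTGT reached 55 on the right and 54 on the left at 80 to 100 bp, against 6 and 9 on the opposite strand. At 20 to 40 bp on the right, the plus strand held 38 of CACTGT against 8, and 22 of TCAGTG against 2. At that distance on the left, the minus strand held 16 of CACTGT against 12, and 8 of TCAGTG against 9. In 98 members (7.30%) at least 1 of the words pointed outward on both sides, in 362 on 1 side and in 882 on neither. Inward, the counts were 7 on both sides and 133 on 1.

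**Figure D5:**
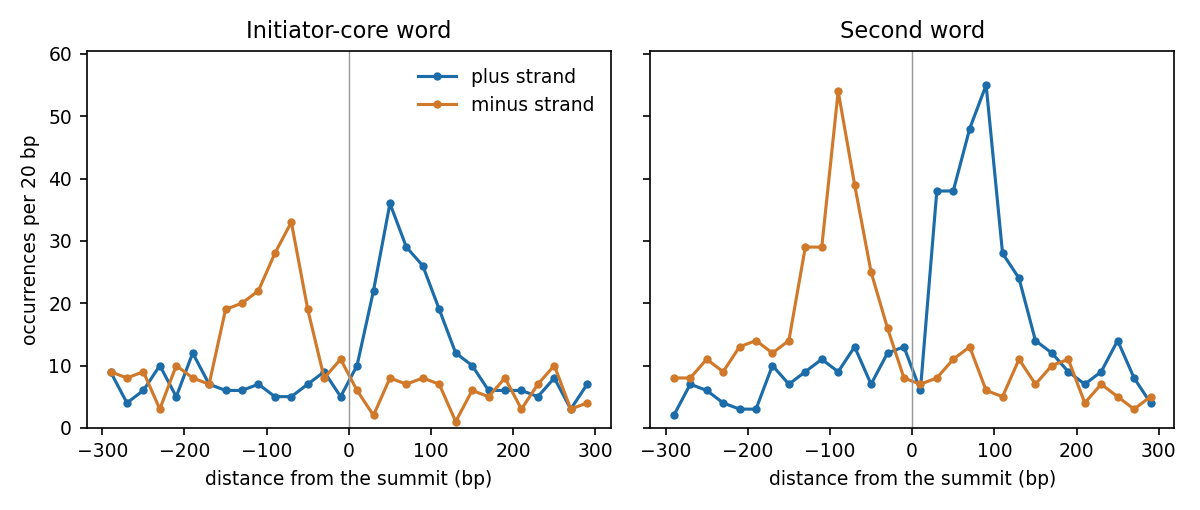
Occurrences per 20 bp (vertical axis) of TCAGTG (left, initiator-core word) and CACTGT (right, second word) by distance from the pooled summit of the 1342 genic peaks, on the plus and minus strands. The plus strand peaks to the right of the summit and the minus strand to the left, mostly within about 40 to 140 bp. On the right the plus strand already leads at 20 to 40 bp.

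Outward CACTGT was more frequent at stronger peaks. With members split into 5 equal groups by signal, it was 19.3% in the strongest, then 14.1%, 10.6%, 10.6% and 8.77%, while the inward share ranged from 2.24 to 5.39% with no steady order. Outward TCAGTG went from 10.8% in the strongest to 6.53% in the weakest. With distance from the TSS, outward TCAGTG was at 6.34% for 0.5 to 1 kb, 7.12% for 1 to 2 kb, and 10.2% and 10.1% in the farther ranges. CACTGT varied between 11.0% and 14.4% without order. The classes differed in the mixture of the words. Promoter peaks had less of either outward (3.75% TCAGTG and 6.99% CACTGT), and intergenic peaks had more TCAGTG (10.7% ± 0.528) and less CACTGT (6.89% ± 0.563) than genic peaks. Peaks beyond 10 kb had the most TCAGTG outward, 12.9% ± 0.619, and 9.47% ± 0.530 CACTGT. Outward minus inward TCAGT was 6.16 percentage points in genic, 2.43 in promoter and 10.3 in intergenic peaks, and 11.8 beyond 10 kb. For TTTTTC the values were 11.2, 2.48, 10.2 and 15.7 in the same order. These differences between classes were not tested, since the words were chosen on these peaks.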

How the data were processed

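The authors deposited narrowPeak lists for each of 3 replicates, for the pooled replicates and for the reproducible (IDR) set, in dm6 and dm3. The dm6 lists were used. Per the deposited text records, lists were called against a control file, and the reproducible set was derived from the pooled and replicate lists. Which aligner, caller and versions were used, and at what IDR cutoff, is not given in the sources used here. The deposited signal is a coverage-type value, not normalized between lists, and was used to rank peaks within a list. The deposited −log10 q-value was below 0.05 as a q-value for all 4524 reproducible peaks. Summit offsets were used as deposited. Chromatin fragments were 200 to 800 bp per the labels.

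Summits were classed with Ensembl release 115 genes on 6 arms, and sequence came from the RefSeq Release 6 genome, whose arm lengths match. Scripts used Python 3.11.15, NumPy 2.4.6, SciPy 1.17.1 and matplotlib 3.10.9 and were tested on simulated data. Replicate values were compared by exact two-sided sign-flip permutation over 3 replicates. Wilson and exact Poisson 95% intervals cover counting error only. Peaks have no p-value over regions.

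Motifs were sought on both strands within 50 bp of summits and of points 500 bp away. They were the E-box CACGTG, the E-box CAGCTG, the E-box CATATG, the E-box CACCTG, the N-box CACAAG, the N-box CACTAG, the N-box CACGAG, the N-box CACCAG, the related hexamer CACGCG, the GAGA core GAGAG, the early embryonic word CAGGTA, DRE (TATCGATA), the A/T hexamer TTAAAA, the repeat words CTCCTC and, as a further repeat, CACACA, and the Su(H) site. Genes were named by rule: the hosts of the 20 highest genic peaks, the 6 hosts with most peaks, up to 4 hosts per list by best rank, and the peaks nearest either limit. The members, lists and motifs were chosen with earlier results of these data known. Alternatives varied the limits, the top peak number, the overlap, the window, the flank, the transcripts, the upper 2262 peaks and the replicates left out. The depth is unknown and limits every value.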

Additional observations from a re-analysis of the deposited data

How the results depend on the processing

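The number of genic peaks was 634 among the 2262 strongest reproducible peaks. Their mean share in top peaks was 47.7% with the 2262 highest peaks of each replicate, 73.6% with a reciprocal overlap of at least 50%, and 99.5% for those among the 2262 strongest. The share of genic minus that of promoter peaks, −0.44 percentage points, was −7.56 with the 2262 highest peaks, turned to 1.22 with the reciprocal overlap and to 1.00 among the 2262 strongest, and ran from −1.83 (without replicate 2) to 0.29 when 1 replicate was left out. Among the 2262 strongest, genic minus intergenic share was 0.62, and the rank differences, 6.39 to promoter and −2.27 to intergenic peaks, lost their common sign. Lists without their leading host, an alternative chosen after seeing the data, ran from 17.2 to 122.9 peaks per Mb. The ratio of first to later introns was 1.80 with canonical transcripts, and the listed hosts numbered 53 among the 2262 strongest. By the gene of the nearest TSS, listed genes with a genic peak numbered 74. Of 160 motif comparisons 150 kept their sign, and 12 of 16 motifs kept it under all 10 alternatives. The reversals, in percentage points of summit minus flank, were CATATG (−0.0505 with windows of 51 bp), DRE (0.0125 with 51 bp), CAGGTA (0.00016 with doubled windows and 0.90 among the 2262 strongest) and the N-box CACAAG. The last, 0.05 with the settings of the report, turned to −0.0251 (51 bp), −0.18 (doubled windows), −0.28 (left flank only), −0.27 (near limit of 1 kb) and −0.16 (2262 strongest), and ran from −0.11 to 0.151 when 1 replicate was left out. The cause was not tested. Outward minus inward shares, in alternatives chosen after seeing the data, ran from 4.50 to 8.31 percentage points for TCAGTG and from 6.70 to 11.2 for CACTGT. No paired analysis was possible because the samples form 1 group and no groups can be paired by replicate number; classes of peak were compared within each replicate. The unknown depth and the control not analysed here limit how far weaker peaks can be read.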
